A study of Mus musculus with 14 samples.

Results

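The genes described here encode the collagen chains, the laminin chains and a set of extracellular matrix glycoproteins, proteases and protease inhibitors. They were chosen by the gene symbol on the array alone: every probe for a collagen or laminin chain and every probe for Nid1, Nid2, Fn1, Tnc, Sparc, Hspg2, Agrn, Mmp2, Mmp14, Timp1, Timp2 or Timp3. This gave 87 of 25697 probes, and 56 of 16593 genes. They were 37 collagen chains, 8 laminin chains, 6 glycoproteins or proteoglycans, 2 proteases and 3 inhibitors. No probe carried the symbol Fn1, and fibronectin was not analysed here.

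RNA levels come from 14 bead arrays (Illumina MouseRef-8 v2), with 2 in each of 7 groups of mouse cells. Brain-NSCs are neural stem cells grown from the brains of 13.5 dpc (days post coitum) fetuses that were heterozygous for both the ROSA26 (neo/lacZ) and the OG2 (Oct4-GFP) transgenes, and MEFs are embryonic fibroblasts from fetuses of the same age and genotype. The iPSCs were made from MEFs of that genotype with retroviruses carrying Oct4, Sox2, Klf4 and c-Myc. iPS-NSCs #1 and #3 are a pair of lines differentiated from iPSCs in culture. iPS-cNSCs descend from iPSCs that had been aggregated with host embryos, and were cultured from the 13.5 dpc brains of the chimeras under neomycin, which only iPSC progeny survive. NED-NSCs (normal embryo-derived) came from the same kind of culture and are the X-gal-negative host cells, so they carry neither the reprogramming viruses nor the transgenes. ESCs are OG2 heterozygous cells from 3.5 dpc blastocysts and were kept on inactivated MEF feeders with serum. All NSC groups grew on gelatin in medium with EGF and bFGF, but their routes and base media differed. Brain-NSCs came through neurospheres into NS-A medium. The methods describe in vitro iPS-NSCs as plated from suspension culture into DMEM/F12 medium. Chimeric brain cells came through neurospheres. These differences cannot be told apart from those of cell source. The brain-NSC group and the NED-NSC group differ in transgene genotype as well as in source. The host embryos were B6C3F1, and the methods do not give the strain of the OG2 and ROSA26 mice. A strain difference between these groups thus cannot be told apart from the others. Whether the 2 arrays of a group hold RNA of independent cultures is not stated in the labels, and the p-values rest on a spread between arrays that may be technical.

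Basement membranes are thin sheets built on networks of laminin trimers and of type IV collagen, joined by nidogens and the heparan sulfate proteoglycan perlecan. Fibrillar collagens such as types I, III and V form the rope-like fibres that fibroblasts lay down in connective tissue. Neural stem cells make and touch laminin-rich matrix in their niche and secrete tenascin-C, matrix metalloproteinases cut such proteins, and the TIMP proteins inhibit those enzymes.

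Col4a1 and Col4a2 encode the alpha 1 and alpha 2 chains, which assemble with each other into the common type IV collagen trimer. The genes lie head to head on chromosome 8 and are read in opposite directions from a shared promoter region. Their RefSeq promoter windows (GRCm38.p6) are shown because the pair moved together through most of the comparisons that follow. The Col4a1 window is chr8:11312777-11313076 on the minus strand and the Col4a2 window is chr8:11312555-11312854 on the plus strand, each running from 250 bases before the annotated start to 50 bases after it. Both windows are 300 bases long and share 78 bases, read from opposite strands. Capitals mark matches to CCAAT (reverse complement ATTGG) and to the GC box GGGCGG (reverse complement CCGCCC), searched on both strands, and the bases after the start belong to the first exon.
Col4a1: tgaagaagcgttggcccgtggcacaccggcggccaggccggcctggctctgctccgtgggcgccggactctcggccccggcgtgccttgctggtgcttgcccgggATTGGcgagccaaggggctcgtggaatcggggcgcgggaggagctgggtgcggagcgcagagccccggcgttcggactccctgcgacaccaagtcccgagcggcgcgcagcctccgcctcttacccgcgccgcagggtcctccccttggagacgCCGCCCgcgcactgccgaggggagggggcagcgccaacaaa
Col4a2: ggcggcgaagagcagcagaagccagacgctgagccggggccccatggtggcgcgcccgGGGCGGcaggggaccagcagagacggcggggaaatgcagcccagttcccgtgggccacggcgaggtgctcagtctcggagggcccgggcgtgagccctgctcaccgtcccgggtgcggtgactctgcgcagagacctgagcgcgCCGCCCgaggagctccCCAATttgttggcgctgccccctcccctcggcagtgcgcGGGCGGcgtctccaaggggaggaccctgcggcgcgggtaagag
The Col4a1 window held 1 CCAAT match and 1 GC box, the Col4a2 window held 1 CCAAT match and 3 GC boxes, and neither held TATAAA. Of 32851 mouse promoter windows of the same length, 37.4% held CCAAT, 35.7% held the GC box and 13.6% held TATAAA, so these motifs are common and the matches are a description only.

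Values are the deposited log2 values, on which a difference of 1 is a change of 2-fold. A level of 7.7 marked the background, the point at which the deposited detection p-value crosses 0.05. By this measure 48 of the 56 genes were above background on 1 or more arrays, 26 on 7 or more and 15 on all 14, and 8 were above it on none. MEFs expressed the most of them, with 33 genes above background on both arrays, against 23 in brain-NSCs, 23 in NED-NSCs, 26 in iPS-cNSCs, 23 in iPS-NSCs #1, 25 in iPS-NSCs #3 and 27 in ESCs. Replicate arrays differed by a median of 0.06 (MEFs) to 0.13 (ESCs) over the 56 genes, and by at most 0.48 (Col1a2 in MEFs). Genes were compared between groups with limma in 1 fit of all probes, and a gene was called higher or lower at a Benjamini-Hochberg adjusted p under 0.05 with a log2 difference over 1. The groups matched their labels: of 11 neural stem cell markers with a probe 9 were above background on both brain-NSC arrays, 7 or 8 in the other NSC groups and 3 in MEFs, of 10 pluripotency markers 9 were so in ESCs, and of 11 fibroblast markers 9 were so in MEFs. Pax6 and Msi1, commonly used neural stem cell markers, were not above background on the arrays of any group.

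**Figure D1:**
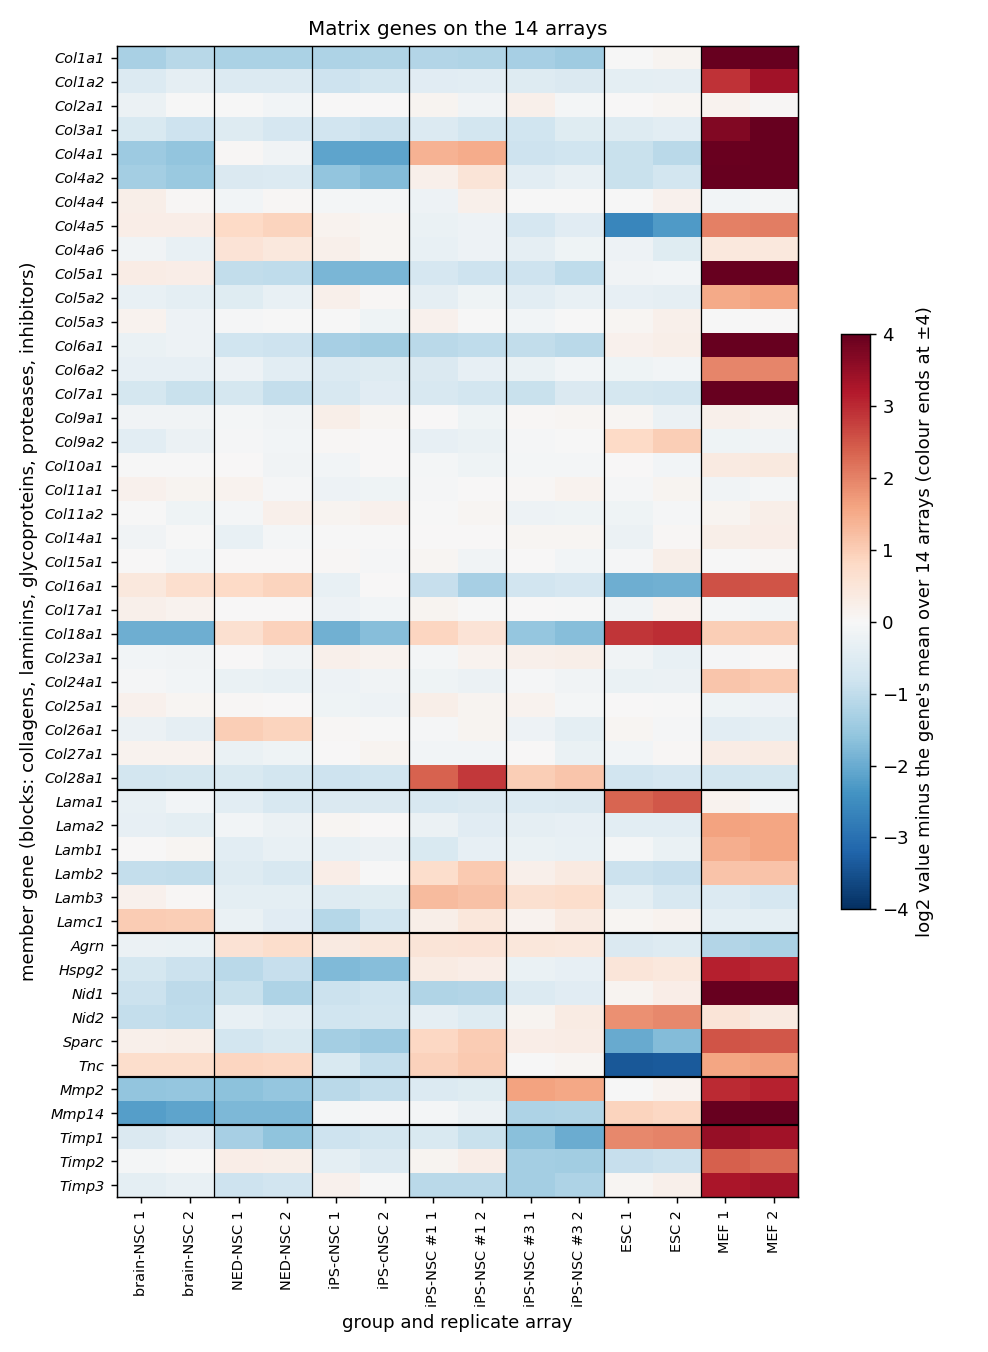
Log2 values of the 48 genes above background on 1 or more arrays, each minus the mean of that gene over the 14 arrays (colour, red higher and blue lower, ending at 4 in either direction), by array (columns, 2 per group) and gene (rows, in blocks of collagens, laminins, glycoproteins and proteoglycans, proteases and inhibitors). MEFs are the darkest red columns, Col28a1 stands out in the iPS-NSC lines, and Col18a1 and Lama1 in ESCs.

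Col4a1 and Col4a2 were higher in iPS-NSCs and NED-NSCs than in iPS-cNSCs. Col4a1 read 9.26 and 9.12 in brain-NSCs, 10.76 and 10.58 in NED-NSCs, 8.59 and 8.61 in iPS-cNSCs, 12.1 and 12.2 in iPS-NSCs #1, 9.89 and 9.9 in iPS-NSCs #3, 9.83 and 9.64 in ESCs, and 14.66 and 14.75 in MEFs. Its lowest values were those of iPS-cNSCs and its highest those of MEFs, and only the arrays of iPS-NSCs #3 and ESCs came within 0.1 of each other. Col4a2 read 8.39 and 8.26 in brain-NSCs, 9.17 and 9.19 in NED-NSCs, 8.15 and 8.01 in iPS-cNSCs, 9.95 and 10.27 in iPS-NSCs #1, 9.33 and 9.44 in iPS-NSCs #3, 8.85 and 9.02 in ESCs, and 14.22 and 14.13 in MEFs. Again iPS-cNSCs were lowest and MEFs highest, and the arrays of no pair of groups overlapped. Against brain-NSCs, Col4a1 was higher in the mean of the iPS-NSC lines (log2 difference 1.83 ± 0.09, SE; limma adjusted p = 3.4e-13; 2.95 in line #1 and 0.7, not called, in line #3), in NED-NSCs (1.48 ± 0.1, adjusted p = 2.4e-10) and in MEFs (5.51 ± 0.1, or 45.7-fold, adjusted p = 2.0e-21). In iPS-cNSCs it differed from brain-NSCs by -0.6 and was not called, while it was 5.37-fold lower than in iPS-NSCs and 4.21-fold lower than in NED-NSCs. Col4a2 was 57.8-fold higher in MEFs and 2.69-fold higher in iPS-NSCs than in brain-NSCs, and in iPS-cNSCs it was 3.18-fold lower than in iPS-NSCs and 2.14-fold lower than in NED-NSCs. Both genes are on chromosome 8, whose genes (461 above background) had a median difference of 0.25 to 0.29 in iPS-cNSCs against the 3 groups compared with them and of 0.29 in ESCs against brain-NSCs, where the median over all chromosomes was -0.06 to -0.05. That shift is upward, opposite to the lower Col4a1 and Col4a2 values of iPS-cNSCs, and its part in these values was not tested.

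The other type IV chains behaved differently. Col4a5, which encodes a chain found in kidney and other specialised basement membranes, read 10.2 and 10.21 in brain-NSCs, 10.75 and 10.83 in NED-NSCs, 10.08 and 10.03 in iPS-cNSCs, 9.68 and 9.76 in iPS-NSCs #1, 9.28 and 9.49 in iPS-NSCs #3, 7.35 and 7.67 in ESCs, and 11.96 and 11.99 in MEFs. It was not above background on either ESC array, at least 5.68-fold below brain-NSCs (adjusted p = 2.7e-15), and 3.42-fold above them in MEFs. This bound sets the brighter mean against the background level, since a value below that level has no measured fold. Col4a6 reached 8.26 and 8.15 in NED-NSCs and 8.16 and 8.15 in MEFs and stayed at or below 7.93 elsewhere, without a call. Col4a3 was not above background on any array, and Col4a4 was so on 2 arrays only.

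Col18a1 encodes the basement membrane collagen whose C-terminal fragment is endostatin. It read 8.31 and 8.3 in brain-NSCs, 10.89 and 11.18 in NED-NSCs, 8.35 and 8.54 in iPS-cNSCs, 11.12 and 10.8 in iPS-NSCs #1, 8.72 and 8.56 in iPS-NSCs #3, 13.13 and 13.21 in ESCs, and 11.24 and 11.26 in MEFs. The groups fell into a low set (brain-NSCs, iPS-cNSCs, iPS-NSCs #3), a middle set in which NED-NSCs and iPS-NSCs #1 overlapped just below MEFs, and ESCs on top. Against brain-NSCs it was 29.2-fold higher in ESCs (4.87 ± 0.12, adjusted p = 3.7e-19), 7.69-fold in MEFs, 6.63-fold in NED-NSCs and 2.82-fold in iPS-NSCs. The last value is a mean of unlike lines, because Col18a1 rose by 2.65 in iPS-NSCs #1 and by 0.33, which was not called, in #3. Col18a1 has 3 probes. With their mean in place of the brightest, its differences in iPS-NSCs (0.53), NED-NSCs (0.99) and MEFs (0.99) all came to under 1. A dimmer probe read no more than 9.42 on any array, and the third was not above background on any. The dimmer probe read 8.11 and 8.18 in iPS-NSCs #1, 7.49 and 7.56 in #3, and 7.56 and 7.45 in iPS-cNSCs. The gene is on chromosome 10, where 416 genes above background had a median difference of 0.31 between iPS-NSCs #1 and #3 (-0.03 over all chromosomes), and the part of this in the 2.32 between the lines was not tested.

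Col28a1 encodes a von Willebrand factor A domain collagen that in mouse is best known from peripheral nerve. It read 7.53 and 7.57 in brain-NSCs, 7.68 and 7.55 in NED-NSCs, 7.44 and 7.47 in iPS-cNSCs, 10.65 and 11.11 in iPS-NSCs #1, 9.26 and 9.39 in iPS-NSCs #3, 7.52 and 7.61 in ESCs, and 7.53 and 7.56 in MEFs. All 4 iPS-NSC arrays were above background and the other 10 were not. The level in iPS-NSCs was at least 5.28-fold above brain-NSCs and above iPS-cNSCs (limma adjusted p = 1.2e-14 and 4.9e-15), and it was 2.95-fold higher in line #1 than in #3.

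Fibrillar and other collagens of connective tissue marked the MEFs. Col1a1, which encodes the main chain of type I collagen, read 7.41 and 7.6 in brain-NSCs, 7.43 and 7.43 in NED-NSCs, 7.48 and 7.5 in iPS-cNSCs, 7.53 and 7.5 in iPS-NSCs #1, 7.39 and 7.3 in iPS-NSCs #3, 8.68 and 8.82 in ESCs, and 14.94 and 14.94 in MEFs. No NSC array was above background, so MEFs were at least 151-fold higher than brain-NSCs (adjusted p = 2.1e-23) and ESCs at least 2.07-fold higher. Col3a1, the type III chain, read 11.87 and 12.22 in MEFs and at most 7.74 on the other arrays, at least 20.3-fold above brain-NSCs. That is its brighter probe, and a second Col3a1 probe stayed near background, at 7.76 and 7.7 in MEFs and 7.31 and 7.39 in brain-NSCs. Col1a2, the second type I chain, read 11.12 and 11.59 in MEFs and 7.4 to 7.88 on all other arrays, 11.8-fold above brain-NSCs.
Col7a1, which encodes the anchoring fibril collagen of skin, read 7.76 and 7.58 in brain-NSCs, 7.76 and 7.52 in NED-NSCs, 7.84 and 8.02 in iPS-cNSCs, 7.82 and 7.73 in iPS-NSCs #1, 7.58 and 7.89 in iPS-NSCs #3, 7.78 and 7.74 in ESCs, and 12.83 and 12.77 in MEFs, where it was 35-fold above brain-NSCs (adjusted p = 7.1e-20). Outside MEFs every array lay between 7.52 and 8.02. The rise was smaller at a second Col7a1 probe, which read 9.38 and 9.42 in MEFs and 7.47 and 7.31 in brain-NSCs. Col10a1, Col24a1 and Col27a1 were above background on the MEF arrays only.

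Among collagens that brain-NSCs did express, Col5a1 was lower in the other NSC groups and Col16a1 in the iPS-NSC lines. Col5a1, which encodes a chain of type V collagen that sets the diameter of type I fibres, read 11.12 and 11.1 in brain-NSCs, 9.86 and 9.81 in NED-NSCs, 9 and 9 in iPS-cNSCs, 10.15 and 10 in iPS-NSCs #1, 9.99 and 9.81 in iPS-NSCs #3, 10.69 and 10.71 in ESCs, and 15.17 and 15.22 in MEFs. Every other NSC array was below both brain-NSC arrays, and the difference was -2.11 ± 0.09 (SE) in iPS-cNSCs, -1.27 ± 0.09 in NED-NSCs and -1.12 ± 0.08 in iPS-NSCs (limma adjusted p = 1.9e-13, 1.0e-09 and 4.9e-10). Col16a1, a fibril-associated collagen, read 10.9 and 11.17 in brain-NSCs, 11.29 and 11.38 in NED-NSCs, 10.19 and 10.51 in iPS-cNSCs, 9.55 and 9.17 in iPS-NSCs #1, 9.73 and 9.8 in iPS-NSCs #3, 8.52 and 8.56 in ESCs, and 13.02 and 13.01 in MEFs. It was 2.78-fold lower in iPS-NSCs and 5.62-fold lower in ESCs than in brain-NSCs, and 3.95-fold higher in MEFs. It was not called in iPS-cNSCs (-0.69) or in NED-NSCs (0.3), whose arrays both lay above those of brain-NSCs. Col6a1, a type VI chain, read 8.73 and 8.81 in brain-NSCs, 8.21 and 8.17 in NED-NSCs, 7.66 and 7.61 in iPS-cNSCs, 7.91 and 7.98 in iPS-NSCs #1, 8.01 and 7.92 in iPS-NSCs #3, 9.16 and 9.23 in ESCs, and 13.31 and 13.33 in MEFs. It was not above background in iPS-cNSCs, at least 2.1-fold below brain-NSCs. A second probe read 8.52 and 8.47 in brain-NSCs and 7.56 and 7.61 in iPS-cNSCs, and another was not above background on any array, so that the mean of the 3 differed by -0.67. Col26a1, which encodes an EMI-domain collagen, read 7.48 and 7.35 in brain-NSCs, 8.71 and 8.62 in NED-NSCs, 7.76 and 7.71 in iPS-cNSCs, 7.69 and 7.83 in iPS-NSCs #1, 7.51 and 7.32 in iPS-NSCs #3, 7.81 and 7.68 in ESCs, and 7.3 and 7.33 in MEFs. NED-NSCs were the only group clearly over background, at least 1.95-fold above brain-NSCs (adjusted p = 1.2e-09).

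The laminins differed by chain. Lamc1 encodes the gamma 1 chain shared by most laminin trimers, and read 12.25 and 12.2 in brain-NSCs, 10.97 and 10.77 in NED-NSCs, 10.09 and 10.41 in iPS-cNSCs, 11.45 and 11.69 in iPS-NSCs #1, 11.37 and 11.57 in iPS-NSCs #3, 11.3 and 11.37 in ESCs, and 10.83 and 10.84 in MEFs. It was the one laminin highest in brain-NSCs, and was lower in iPS-cNSCs (-1.98 ± 0.11, adjusted p = 1.5e-11), NED-NSCs (-1.36 ± 0.11) and MEFs (-1.39 ± 0.11). Lamb2, the beta 2 chain, read 9.08 and 9.07 in brain-NSCs, 9.52 and 9.42 in NED-NSCs, 10.31 and 10.04 in iPS-cNSCs, 10.76 and 11.08 in iPS-NSCs #1, 10.26 and 10.42 in iPS-NSCs #3, 9.19 and 9.13 in ESCs, and 11.18 and 11.2 in MEFs. All arrays of iPS-cNSCs and iPS-NSCs lay above those of brain-NSCs and NED-NSCs, and iPS-cNSCs overlapped with line #3 but not with #1. The difference from brain-NSCs was 1.56 ± 0.1 in iPS-NSCs (adjusted p = 4.7e-11) and 1.1 ± 0.11 in iPS-cNSCs (adjusted p = 1.3e-07). The iPS-cNSC difference was 0.96 without replicate 1 of iPS-cNSCs, under the limit of 1. Lamb1, the beta 1 chain, read 8.16 and 8.23 in brain-NSCs, 7.74 and 7.85 in NED-NSCs, 7.86 and 7.9 in iPS-cNSCs, 7.53 and 7.83 in iPS-NSCs #1, 7.87 and 7.84 in iPS-NSCs #3, 8.06 and 7.89 in ESCs, and 9.59 and 9.71 in MEFs. Only MEFs were called, at 2.74-fold above brain-NSCs, and all other arrays lay between 7.53 and 8.23. Lama1, the alpha chain of the first embryonic laminin, read 8.02 and 8.19 in brain-NSCs, 7.89 and 7.66 in NED-NSCs, 7.71 and 7.72 in iPS-cNSCs, 7.67 and 7.73 in iPS-NSCs #1, 7.74 and 7.72 in iPS-NSCs #3, 10.63 and 10.8 in ESCs, and 8.45 and 8.3 in MEFs. ESCs stood alone, 6.11-fold above brain-NSCs (adjusted p = 1.9e-15). Lamb3, the beta 3 chain of epithelial laminin, read 8.35 and 8.23 in brain-NSCs and 8.81 to 9.44 in the iPS-NSC lines, against 7.65 and 7.7 in iPS-cNSCs, which were 2.71-fold below iPS-NSCs. Lama2 read 9.25 and 9.23 in MEFs and at most 7.71 elsewhere, and Lama4 and Lamc3 were not above background on any array.

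Linkers of the basement membrane were high in MEFs and ESCs. Nid1, which encodes nidogen-1, read 7.84 and 7.65 in brain-NSCs, 7.81 and 7.45 in NED-NSCs, 7.83 and 7.9 in iPS-cNSCs, 7.49 and 7.52 in iPS-NSCs #1, 8.14 and 8.22 in iPS-NSCs #3, 8.8 and 8.95 in ESCs, and 13.02 and 12.99 in MEFs. NSC arrays were near background except those of line #3, and MEFs were 38.3-fold and ESCs 2.18-fold above brain-NSCs. Nid2, the second nidogen, read 8.63 and 8.56 in brain-NSCs, 9.27 and 9.14 in NED-NSCs, 8.77 and 8.82 in iPS-cNSCs, 9.22 and 9.04 in iPS-NSCs #1, 9.69 and 9.9 in iPS-NSCs #3, 11.41 and 11.48 in ESCs, and 10.09 and 9.93 in MEFs. Here ESCs exceeded MEFs, at 7.19-fold and 2.66-fold above brain-NSCs. Hspg2, the perlecan gene, read 10.18 and 10.02 in brain-NSCs, 9.81 and 9.96 in NED-NSCs, 9.12 and 9.19 in iPS-cNSCs, 11.2 and 11.13 in iPS-NSCs #1, 10.61 and 10.56 in iPS-NSCs #3, 11.36 and 11.29 in ESCs, and 13.98 and 13.91 in MEFs. iPS-cNSCs were lowest, 3.29-fold below iPS-NSCs (adjusted p = 2.5e-13), and their -0.94 against brain-NSCs was under the limit. Agrn encodes agrin, the proteoglycan that clusters acetylcholine receptors, and differed from brain-NSCs by 0.65 to 0.89 in the NSC groups, by -0.3 in ESCs and by -0.98 in MEFs, with no call.

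Sparc and Tnc encode secreted proteins that bind matrix and alter how cells adhere to it. Sparc, the collagen-binding osteonectin, read 12.19 and 12.22 in brain-NSCs, 11.28 and 11.4 in NED-NSCs, 10.65 and 10.56 in iPS-cNSCs, 12.84 and 13.01 in iPS-NSCs #1, 12.28 and 12.29 in iPS-NSCs #3, 9.99 and 10.28 in ESCs, and 14.52 and 14.48 in MEFs. The order was MEFs, iPS-NSCs #1, iPS-NSCs #3, brain-NSCs, NED-NSCs, iPS-cNSCs and ESCs with no overlap between neighbours. At this probe #3 and brain-NSCs differed by only 0.09 (limma adjusted p = 0.64). A second Sparc probe gave the same order with a wider gap there. It read 11.4 and 11.54 in brain-NSCs, 11.97 and 11.98 in iPS-NSCs #3, 12.73 and 13 in #1, and 10.05 and 9.95 in iPS-cNSCs. In iPS-cNSCs Sparc was 3.03-fold below brain-NSCs (adjusted p = 4.9e-11) and 4-fold below iPS-NSCs (adjusted p = 4.4e-14). Tnc, the gene of tenascin-C, read 13.79 and 13.8 in brain-NSCs, 13.96 and 13.94 in NED-NSCs, 12.49 and 12.14 in iPS-cNSCs, 14.01 and 14.14 in iPS-NSCs #1, 13.09 and 13.19 in iPS-NSCs #3, 9.71 and 9.75 in ESCs, and 14.67 and 14.74 in MEFs. ESCs were 16.7-fold below brain-NSCs (adjusted p = 2.7e-19), and iPS-cNSCs were 2.79-fold below them, 3.1-fold below NED-NSCs and 2.45-fold below iPS-NSCs. Sparc is on chromosome 11, whose 720 genes had a median difference of -0.1 in iPS-cNSCs against brain-NSCs (-0.05 over all chromosomes), and the part of this was not tested. The Sparc and Tnc differences of iPS-cNSCs from brain-NSCs were -0.82 and -0.8 when the intensities were scaled by the median instead, and that of Tnc was -0.93 over the mean of its 6 probes, all short of a call.

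Both proteases were near background in brain-NSCs. Mmp2, gelatinase A, read 7.97 and 8 in brain-NSCs, 7.91 and 8 in NED-NSCs, 8.48 and 8.59 in iPS-cNSCs, 9 and 9.08 in iPS-NSCs #1, 11.16 and 11.11 in iPS-NSCs #3, 9.53 and 9.68 in ESCs, and 12.54 and 12.64 in MEFs. Brain-NSCs and NED-NSCs overlapped at the bottom, and line #3 exceeded every group but MEFs. The difference from brain-NSCs was 3.15 in line #3 and 1.05 in line #1, 1.62 in ESCs and 4.61 in MEFs. Mmp14, the membrane-bound enzyme that activates pro-MMP2, read 7.38 and 7.47 in brain-NSCs, 7.78 and 7.78 in NED-NSCs, 9.52 and 9.55 in iPS-cNSCs, 9.5 and 9.36 in iPS-NSCs #1, 8.34 and 8.39 in iPS-NSCs #3, 10.46 and 10.41 in ESCs, and 14.07 and 14.16 in MEFs. It was not above background in brain-NSCs, and every array of iPS-cNSCs and iPS-NSCs exceeded every array of brain-NSCs and NED-NSCs. The level was at least 3.57-fold above brain-NSCs in iPS-cNSCs (adjusted p = 1.7e-13) and at least 2.29-fold above them in the mean of the iPS-NSC lines (adjusted p = 4.5e-12), with a difference of 2 in line #1 and of 0.94, not called, in line #3. ESCs were at least 6.67-fold and MEFs at least 85.1-fold above them. Mmp2 is on chromosome 8, whose upward median in ESCs (0.29) is given above and was not tested as a part of the 1.62.

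Timp1, an inhibitor of most matrix metalloproteinases, read 8.88 and 9 in brain-NSCs, 8.13 and 7.84 in NED-NSCs, 8.63 and 8.73 in iPS-cNSCs, 8.84 and 8.58 in iPS-NSCs #1, 7.78 and 7.48 in iPS-NSCs #3, 11.38 and 11.45 in ESCs, and 12.94 and 12.83 in MEFs. It was lowest in iPS-NSCs #3, near background, and 5.55-fold and 15.4-fold above brain-NSCs in ESCs and MEFs. Timp2, which encodes both an inhibitor of MMP2 and a partner in its activation by MMP14, read 11.83 and 11.87 in brain-NSCs, 12.17 and 12.12 in NED-NSCs, 11.51 and 11.36 in iPS-cNSCs, 12 and 12.16 in iPS-NSCs #1, 10.53 and 10.5 in iPS-NSCs #3, 10.96 and 11.03 in ESCs, and 14.27 and 14.2 in MEFs. Line #3 was lowest here too, with a difference of -1.34 from brain-NSCs (limma adjusted p = 1.2e-10), and line #1 exceeded it by 1.56. Timp3, the inhibitor that binds matrix, read 9.2 and 9.31 in brain-NSCs, 8.78 and 8.83 in NED-NSCs, 9.79 and 9.58 in iPS-cNSCs, 8.53 and 8.52 in iPS-NSCs #1, 8.26 and 8.38 in iPS-NSCs #3, 9.67 and 9.8 in ESCs, and 12.86 and 12.96 in MEFs. Against iPS-NSCs, iPS-cNSCs had a difference of 1.27 ± 0.09 (limma adjusted p = 1.3e-10), the only rise called among the 56 genes there, but 0.72 over the mean of its 2 probes, of which the dimmer read at most 7.71 outside MEFs. Timp3 and Col18a1 are on chromosome 10, whose median in that comparison was -0.21 (-0.06 over all chromosomes), opposite to the Timp3 value and in the direction of the Col18a1 value, and its part was not tested.

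**Figure D2:**
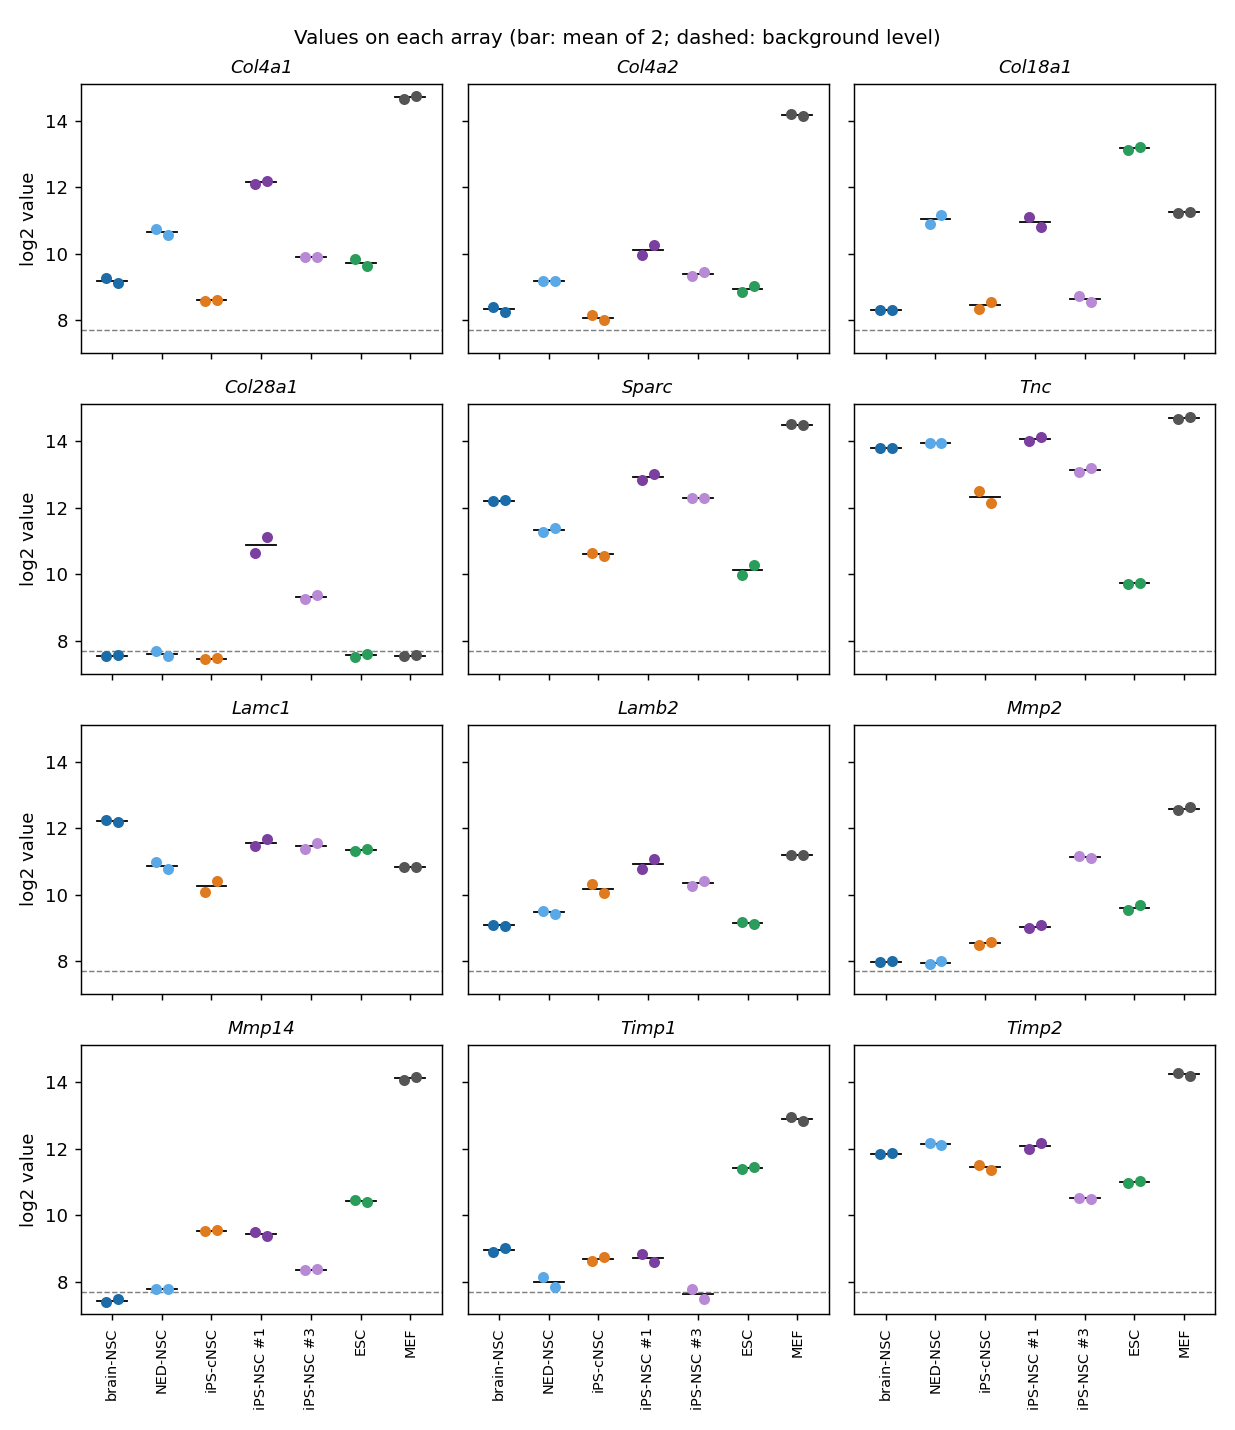
Log2 values (vertical axis) of 12 genes on each array, by group (horizontal axis, 2 points per group, bar at their mean, dashed line at the background level of 7.7). Col28a1 leaves background only in the iPS-NSC lines, and iPS-cNSCs are the lowest NSC group for Col4a1, Col4a2, Sparc, Tnc and Lamc1.

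The comparison of iPS-NSCs with brain-NSCs asked how neural stem cells made from iPSCs in culture differ from those of the fetal brain. Of 20 basement membrane members Col4a1, Lamb2, Col18a1 and Col4a2 were higher in the mean of the iPS-NSC lines and 0 were lower (limma, at adjusted p alone 8 higher and 4 lower). Both proteases, Mmp2 and Mmp14, and Col28a1 were higher as well. Taken alone, line #1 had each of these 7 genes called higher, while line #3 had only Col28a1, Mmp2, Lamb2 and Col4a2 of them, with Col4a1 at 0.7, Col18a1 at 0.33 and Mmp14 at 0.94. Outside these 7, Lamb3 (1.1) and Hspg2 (1.06) were called higher in line #1 and Nid2 (1.19) in line #3. Timp1 (-1.32) and Timp2 (-1.34) were called lower in line #3 only. Col16a1 and Col5a1 were lower in the mean of the lines and in each line. For the mean of the lines, 7 of 56 were called higher (12.5%), where 1.36% of the 16593 genes tested were called higher, and 2 called lower (3.57%), where 1.17% of all genes were. The median difference was 0.02, and 0 over all genes. Fibroblasts were the cells the iPSCs were made from. The fibroblast marker list had an array mean of 7.61 to 7.65 in brain-NSCs, 8.15 to 8.17 in line #1, 7.8 to 7.88 in line #3 and 10.24 to 10.29 in MEFs, with 2, 4, 4 and 9 of 11 markers above background on both arrays. Thy1, a gene also of neurons, carried most of this in line #1 (12.68 and 12.6, against 7.5 and 7.32 in brain-NSCs). Twist2 read 8.38 and 8.31 in line #3 and was not above background in #1 or brain-NSCs, while Lum, Pdgfrb, Tcf21, Fap, Postn and Tbx5 were not above background in either line, nor was Col1a1. Of 8 endothelial markers, 2 were above background on both arrays in brain-NSCs (array mean 7.59 to 7.62), 2 in line #1 (7.64 to 7.66) and 3 in line #3 (7.8). Emcn among them read 8.24 and 8 in line #1 and 9.15 and 9.3 in line #3, against 7.48 and 7.51 in brain-NSCs, and Tek read 7.89 to 8.11 in the lines against 7.49 and 7.55, whereas Pecam1, Cdh5, Flt1 and Tie1 were not above background in either line. The part of the fibroblast and endothelial markers in the differences was not tested. In bulk cultures a change in the share of cells and a change in RNA per cell cannot be told apart.

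Setting iPS-cNSCs against brain-NSCs asked the same of cells that had become neural inside an embryo. Mmp14 and Lamb2 were higher, and Col5a1, Lamc1, Sparc, Tnc and Col6a1 were lower. These were 2 of 56 genes called higher (3.57%), where 1.98% of all genes were, and 5 called lower (8.93%), where 1.3% of all genes were. The median was -0.03, as over all genes, and over the 26 genes above background on 7 or more arrays it was -0.29 (all such genes -0.05). The balance depended on the scaling: the intensities gave 6 higher and 10 lower after neqc normalization, and 5 higher and 3 lower after median scaling. Over all genes the counts were 328 higher and 215 lower, 1017 and 811 after neqc, and 1948 and 64 after median scaling. Of 8 astrocyte markers 7 were above background on both iPS-cNSC arrays (array mean 9.42 to 9.44), 4 in brain-NSCs (8.85), 4 in iPS-NSCs #1 (9.14 to 9.16) and 6 in iPS-NSCs #3 (9.31 to 9.37). Most of the higher mean in iPS-cNSCs came from Gja1, at 13.81 and 13.99 against 10.11 and 10.13 in brain-NSCs. Gja1 was high in the iPS-NSC lines too (13.06 to 13.23) and in ESCs and MEFs (13.67 to 14.39), and read 8.4 and 8.27 in NED-NSCs. Sparcl1, Aldh1l1, S100b and Aqp4 were higher in iPS-cNSCs than in brain-NSCs too. Sparcl1 read 9.18 and 8.88 there and 9.03 to 9.87 in the iPS-NSC lines. Gfap was not above background there, and Aldoc (12.91 and 12.88, against 13.48 and 13.59) and Slc1a2 (7.91 and 8.04, against 8.94 and 8.84) were lower. The part of these markers in the differences was not tested. Of 8 neuron markers 2 were above background on both arrays in iPS-cNSCs (8.61 to 8.65) and 3 in brain-NSCs (8.2 to 8.24). Over all groups 1 to 2 of 6 pericyte markers, 0 to 4 of 6 microglia and macrophage markers (4 in MEFs) and 1 to 3 of 5 neural crest markers were above it on both arrays. The neural crest marker Tfap2a read 10.09 and 10.04 in brain-NSCs, 7.63 and 7.59 in iPS-cNSCs and 7.6 and 7.63 in NED-NSCs. Twist1, of the fibroblast list, read 9.22 and 9.26, 7.66 and 7.77, and 7.43 and 7.55 in the same groups. Lamc1 and Col5a1 were lower in iPS-cNSCs and NED-NSCs as well. Col5a1 was also lower in the iPS-NSC lines, where Tfap2a read 8.11 to 9.19 but Twist1 9.45 to 9.57. Lamc1 was also lower in MEFs, where Tfap2a read 8.15 and 8.16 but Twist1 10.34 and 10.39. In NED-NSCs Ets1, of the neural crest list, read 12.45 and 12.41, against 11.88 and 11.85 in brain-NSCs and 11.67 and 11.61 in iPS-cNSCs. Prrx1, of the fibroblast list, read 8.86 and 8.69, 8.43 and 8.29, and 7.99 and 8.05 in the same order. The part of these markers was not tested.

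Set directly against iPS-NSCs, iPS-cNSCs had lower levels of a group of matrix genes. Col28a1, Col4a1, Sparc, Hspg2, Col4a2, Mmp2, Lamb3, Col18a1, Tnc and Lamc1 were lower than the mean of the lines and Timp3 was higher. Against each line by itself, Col18a1 was lower than in line #1 (-2.52) and not called against #3 (-0.2), Tnc likewise (-1.76 and -0.82), and Mmp2 was lower than in #3 (-2.6) and not called against #1 (-0.51). The other 7 were called lower against both lines. These 10 genes were 17.9% of the 56, where 1.62% of all genes were called lower, and the 1 higher gene was 1.79%, where 2.59% of all genes were. Of 20 basement membrane genes among the members 6 were lower and 0 higher (limma, at adjusted p alone 8 lower and 4 higher), and of 11 fibrillar collagens 0 were called in either direction (at adjusted p alone 3 lower and 2 higher). The median over the 56 genes was 0 (-0.03 over all genes), and over the 26 above background on 7 or more arrays it was -0.31 (all such genes -0.06). Signals of the iPS-NSC arrays were not among the matched intensity columns, so neqc and median scaling were not run for this comparison. Quantile normalizing the probes above background on 7 or more arrays again gave a median of -0.3 over those 26 genes (all such genes -0.05).

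**Figure D3:**
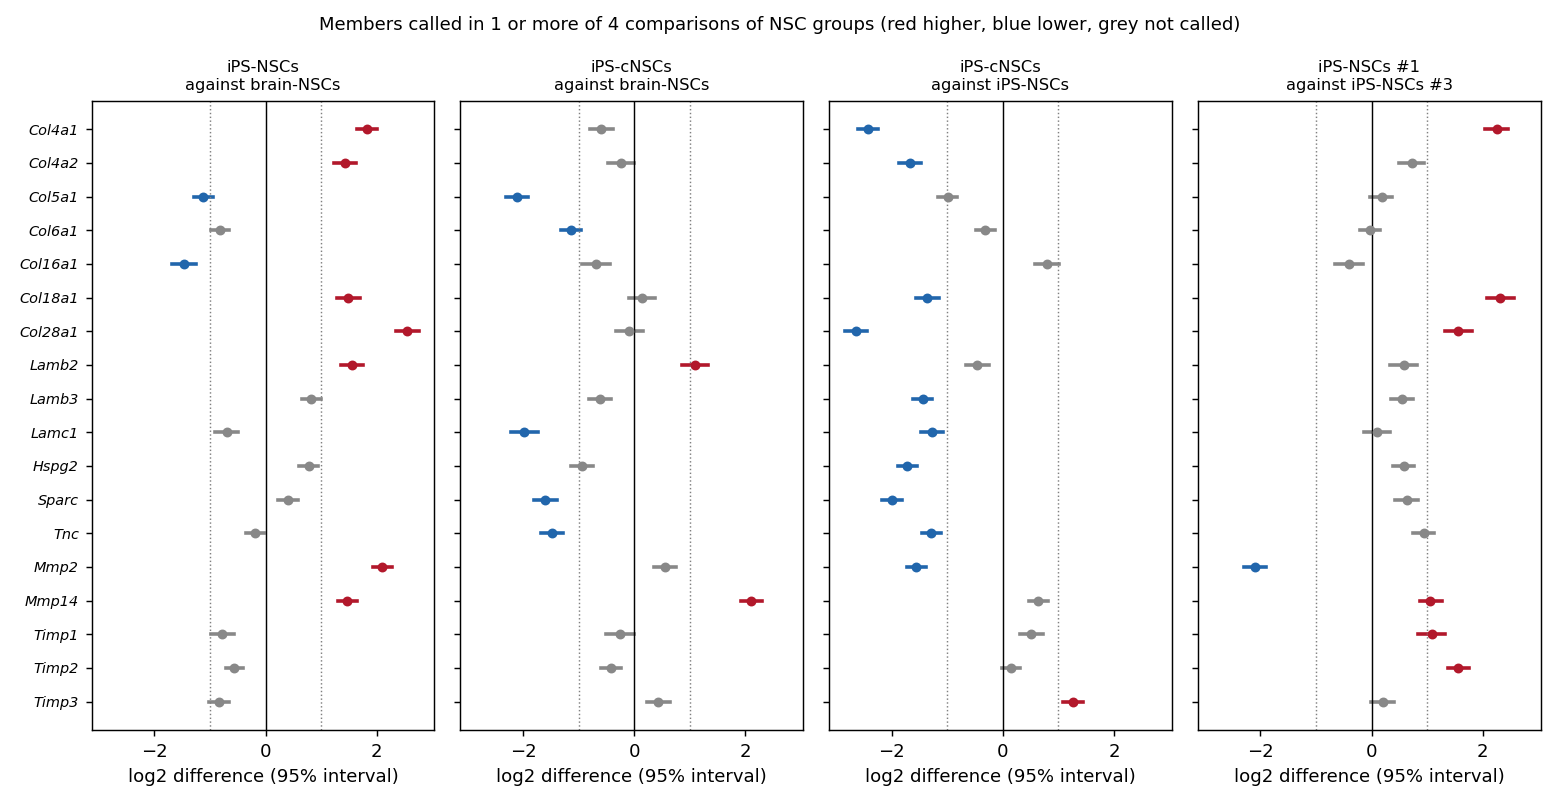
Log2 differences with 95% intervals (horizontal axis) of the 18 genes called in 1 or more of 4 comparisons (panels; the comparisons share arrays), red higher, blue lower, grey not called, dotted lines at a difference of 1 in either direction. Of the genes that separate iPS-cNSCs from iPS-NSCs, 10 are blue and 1, Timp3, is red.

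NED-NSCs, the host cells of the chimeras, tested how far brain-derived cultures differ without any reprogramming. Against brain-NSCs, Col18a1, Col4a1 and Col26a1 were higher, which is 3 of 56 (5.36%, against 1.36% of all genes), and Lamc1 and Col5a1 were lower, which is 2 of 56 (3.57%, against 0.868% of all genes). Intensities normalized by neqc gave 6 higher and 6 lower. Over all genes the counts were 225 higher and 144 lower, 602 and 378 after neqc, and 152 and 204 after median scaling. Against NED-NSCs, iPS-cNSCs were higher only for Mmp14 (1.79% of the 56, against 1.65% of all genes) and lower for Col18a1, Col4a1, Tnc and Col4a2 (7.14%, against 1.23% of all genes). Median scaling of the intensities turned these counts to 5 higher and 2 lower (over all genes from 273 and 204 to 2529 and 62), and the Col4a2 and Tnc differences to -0.58 and -0.61, short of a call, and neqc gave 5 higher and 8 lower (over all genes 862 and 710). None of 8 endothelial markers was above background in NED-NSCs or iPS-cNSCs, and 2 were so in brain-NSCs, against an array mean of 7.59 to 7.62 in brain-NSCs and 7.45 to 7.49 in the other 2 groups. Comparisons against brain-NSCs share those 2 arrays, and those against iPS-cNSCs share theirs, so their calls are not independent of each other.

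The lines of iPS-NSCs differed from each other. Col18a1, Col4a1, Timp2, Col28a1, Timp1 and Mmp14 were higher in #1 than in #3, which is 6 of 56 (10.7%, against 1.01% of all genes). Mmp2 alone was lower, with a difference of -2.1 ± 0.1 (limma adjusted p = 4.2e-13), and this 1 gene is 1.79% of the set, against 0.627% of all genes. Col4a1 differed by 2.25 ± 0.1 (adjusted p = 2.1e-13) and Col4a2 by 0.73 ± 0.11, under the limit. The Timp1 difference of 1.08 was 0.95 without replicate 1 of line #1 and 0.93 without replicate 2 of line #3, and that of Mmp14 (1.06) was 0.99 without replicate 1 of line #1.

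ESCs and brain-NSCs differed in several basement membrane genes. Col18a1, Mmp14, Nid2, Lama1, Timp1, Mmp2, Col1a1, Hspg2, Col9a2 and Nid1 were higher, 10 of 56 (17.9%, against 5.97% of all genes), and Tnc, Col4a5, Col16a1 and Sparc were lower, 4 of 56 (7.14%, against 6.38% of all genes). After median scaling of the intensities 7 were higher and 6 lower (over all genes 729 and 1234, from 990 and 1058), and Col1a1 (0.92), Col9a2 (0.89) and Nid1 (0.86) fell short of a call. The ESCs were kept on MEF feeders. Of 11 fibroblast markers 5 were above background on both ESC arrays, Twist2 among them (8.07 and 8.01, against 12.6 and 12.75 in MEFs), with a list mean of 7.77, while Lum, Pdgfrb, Fap and Postn were not. The part of feeder RNA in the 8.68 and 8.82 of Col1a1 or in the other ESC values was not tested. For Col18a1, Lama1 and Nid2 both ESC arrays lay above both MEF arrays. Of 9 markers of extraembryonic endoderm, a cell type rich in basement membrane, 4 were above background on both ESC arrays (list mean 7.92 to 7.93). In brain-NSCs 1 was so (7.61 to 7.71). Gata6 read 8.9 and 8.71 in ESCs against 7.44 and 7.32 in brain-NSCs, and Sox7 8.56 and 8.47 against 7.61 and 7.51. Pdgfra read 7.71 and 7.84 against 7.69 and 7.59, and Dab2 9.37 and 9.26 against 9.51 and 9.41. Gata4, Sox17, Foxa2, Afp and Ttr were not above background in ESCs. The part of these markers in the ESC values was not tested.

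MEFs showed the broadest change. Of the 56 genes 26 were called higher than in brain-NSCs (46.4%, against 7.25% of all genes) and only Lamc1 was lower (1.79%, against 6.97% of all genes). The median difference was 0.52, and -0.03 over all genes, and over the 26 genes above background on 7 or more arrays it was 2.66 (all such genes -0.14). They included 14 of 37 collagens, 3 of 8 laminins (Lama2, Lamb1 and Lamb2), 4 of 6 glycoproteins and proteoglycans (Hspg2, Nid1, Nid2 and Sparc), both proteases and all 3 inhibitors. By brightest probe, the log2 difference was over 5 for Col4a2, Col4a1, Nid1 and Col7a1, and for Col1a1 and Mmp14, known only as lower bounds. Tnc at 0.91 was under the limit. Col24a1 (1.16) and Col18a1 fell under it with the mean of all probes of the gene, and the Lamc1 difference was -0.8 after median scaling, which over all genes moved the counts from 1203 higher and 1156 lower to 2173 and 677.

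**Figure D4:**
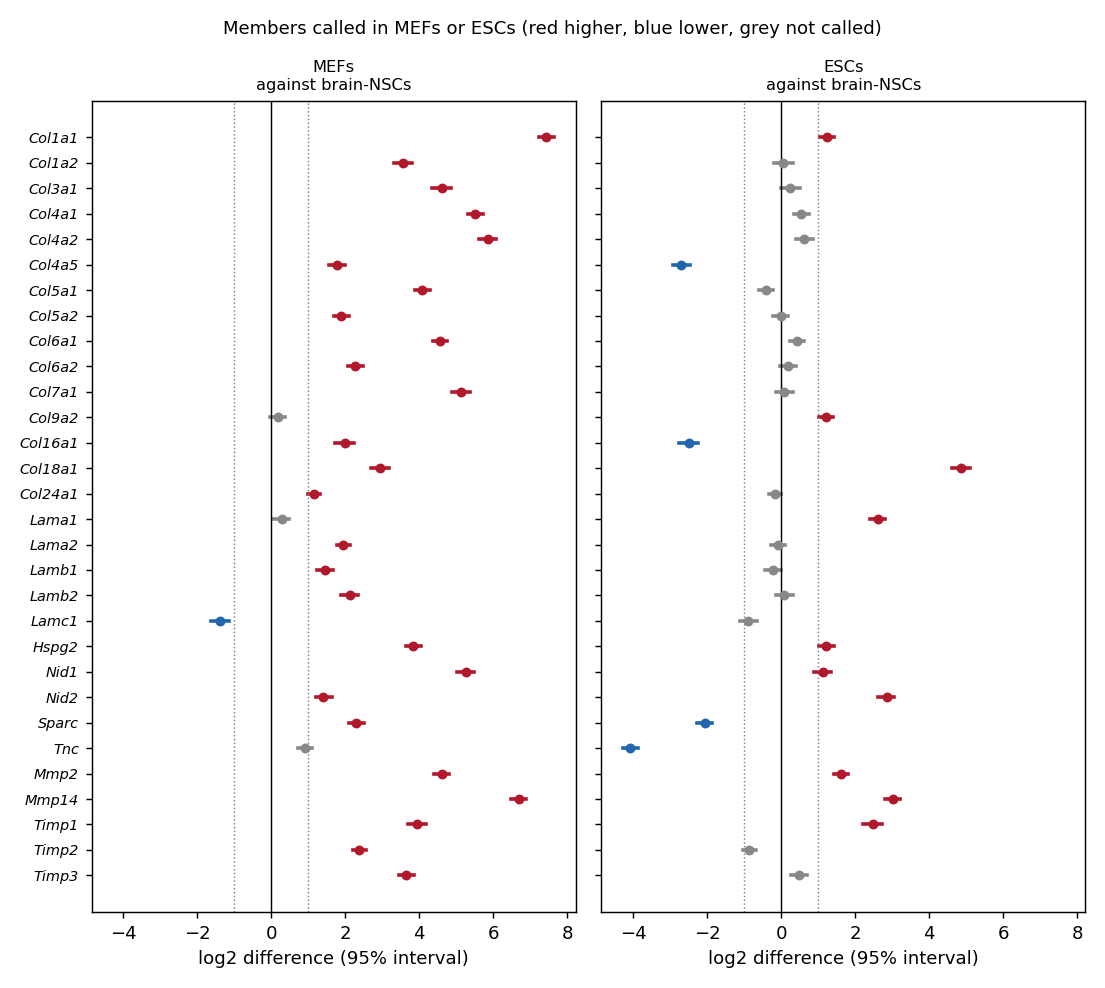
Log2 differences from brain-NSCs with 95% intervals (horizontal axis) of the 30 genes called in MEFs (left) or ESCs (right), red higher, blue lower, grey not called. In MEFs 26 genes are red and Lamc1 alone is blue, while in ESCs 10 are red and 4 blue.

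Genes that process, join, cut or bind the matrix were counted on 4 further lists. Of 20 genes for matrix assembly and cross-linking 13 were higher and 0 lower in MEFs (65% and 0%, against 7.25% and 6.97% of all genes), led by the lysyl oxidases Lox, Loxl1 and Loxl2, which cross-link collagen, and by the transglutaminase Tgm2. In iPS-cNSCs against brain-NSCs 0 were higher and 3 lower (15%, against 1.3% of all genes): Pcolce, an enhancer of procollagen processing (-2.31 ± 0.11), Plod2, a collagen lysyl hydroxylase (-1.45 ± 0.11), and Crtap, part of the prolyl 3-hydroxylase complex (-1.03 ± 0.1). Pcolce and Crtap were also below iPS-NSCs (-2.07 ± 0.1 and -1.28 ± 0.09), which themselves had 0 genes of the list called against brain-NSCs (limma, at adjusted p alone 2 higher and 2 lower). Pcolce read 10.35 and 10.24 in brain-NSCs, 8.21 and 8.06 in NED-NSCs, 8.12 and 7.85 in iPS-cNSCs, and 9.9 to 10.17 in the iPS-NSC lines, so both groups cultured from chimeric brains were low. Serpinh1, the collagen chaperone, was lowest in NED-NSCs, at 7.46 and 7.72 against 9.86 and 9.74 in brain-NSCs.

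Among 27 other matrix glycoproteins, 14 were higher in MEFs than in brain-NSCs (51.9%, against 7.25% of all genes), led by Thbs2, Fbln2, Thbs1 and Ecm1. Fbln2, which encodes fibulin-2, was also 3.04 ± 0.09 higher in NED-NSCs and 2.09 ± 0.09 higher in ESCs, and it read 8.01 and 8.04 in iPS-cNSCs against 11.41 and 11.34 in NED-NSCs. Fbln1, fibulin-1, was lower in iPS-cNSCs (-2.21 ± 0.14) and in NED-NSCs (-2.24 ± 0.14). Sparcl1, a relative of Sparc made by astrocytes, was 1.77 ± 0.1 higher in iPS-NSCs and 1.39 ± 0.11 higher in iPS-cNSCs than in brain-NSCs. Sparc, at its brightest probe, differed by 0.4, not called, and by -1.6 in the same comparisons.
Of 19 further proteases and inhibitors 10 were higher and 1 lower in MEFs (52.6% and 5.26%, against 7.25% and 6.97% of all genes), and in iPS-NSCs and in iPS-cNSCs 0 were called against brain-NSCs (limma, at adjusted p alone 6 higher and 1 lower, and 5 higher and 2 lower). Against iPS-NSCs, iPS-cNSCs were lower for Mmp16 (-1.5 ± 0.09) and higher for Timp4 (1.41 ± 0.09). Timp4 was lower in ESCs (-2.73 ± 0.1).
Of 23 matrix receptors, 3 were higher and 7 lower in ESCs (13% and 30.4%, against 5.97% and 6.38% of all genes), among them the collagen receptor Ddr1 (-3.26 ± 0.12) and the syndecan Sdc3 (-3.93 ± 0.11), whereas the collagen-binding integrin Itga11 rose (2.47 ± 0.09). Itga7, a laminin-binding integrin, read 10.14 and 10.02 in NED-NSCs and 7.52 to 8.09 on the other arrays. Ddr1 in iPS-cNSCs exceeded iPS-NSCs by 2.02 ± 0.1, and line #1 exceeded #3 by 1.71 ± 0.12. Itga9 was lower in iPS-cNSCs than in brain-NSCs (-1.19 ± 0.11).

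Likeness of pattern was measured by Pearson's r over the 14 arrays among 8426 genes above background on 7 or more, where groups of 2 arrays and the high MEF values weigh heavily. The genes most like Col4a1 were Fst (r = 0.972), Col4a2 (0.959) and Ptpn21 (0.957), and those most like Sparc were Elmo2 (0.966), Dzip1l (0.958) and Tmcc2 (0.958).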

How the data were processed

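The authors hybridized labelled cRNA to the arrays and extracted probe signals with GenomeStudio 2011.1. The deposited log2 values had been quantile normalized by the authors (6.82 to 15.99, median 7.67 on every array) and were used as they stand. A second deposited table holds each probe's intensity before normalization and a detection p-value. In it 10 of 14 signal columns matched an array by name, and the other 4 with their 4 detection columns (8 in all) were not used.

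The background level of 7.7 is where the p-value crossed 0.05 on those 10 arrays (7.68 to 7.74), and per array 98.18% to 99.83% of probes fell on the same side of it as by their p-value. Gene symbols are those of the platform annotation (23978 probes with 1 symbol, 1719 with none) and chromosomes from RefSeq (GRCm38.p6). A gene was its probe with the highest mean over 14 arrays, and second probes count only as an alternative.

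All 25697 probes entered 1 fit with a mean per group (limma 3.58.1, R 4.3.3, eBayes with an intensity trend, 7 residual degrees of freedom), with no detection filter. The authors' methods kept probes detected in at least 50% of samples, which would drop genes of 1 cell type, so that filter is an alternative here, as is the local-pooled-error test of those methods, coded anew. Code was tested on simulated data. For a group without any array over background, "at least" gives the other mean against 7.7 or the dim value, whichever was higher. The promoters are RefSeq's, with 43 of 56 genes matched. Figures used Python 3.11.15 and matplotlib 3.10.9.

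The members, gene lists and rules were chosen with earlier results of these data known. Array values are given for up to 6 of the largest rises and 6 of the largest falls called without overlap in each comparison and for Tnc, Sparc, Col4a1, Col4a2, Lamb1, Lamc1, Nid1, Timp1 and Mmp2. Other matrix genes are named from the 4 lists, at most 4 per list and comparison, by size. Marker lists covered 10 cell types. The number of arrays limits the precision.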

Additional observations from a re-analysis of the deposited data

Results flagged for a closer look

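For 7 genes the change from brain-NSCs differed between the 2 iPS-NSC lines by the limma contrast of line #1 with line #3. The difference of the changes, as #1 minus #3 on the log2 scale, was 2.32 for Col18a1, 2.25 for Col4a1, 1.56 for Timp2, 1.56 for Col28a1, 1.08 for Timp1, 1.06 for Mmp14 and -2.1 for Mmp2. The Col18a1 value is that of its brightest probe. A dimmer probe read 8.11 and 8.18 in line #1 and 7.49 and 7.56 in line #3, a smaller gap. No explanation was tested.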

How the results depend on the processing

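Recomputing the 85 changes called in member genes under each alternative gave 1279 values. Of these 1249 kept the direction and the call, 30 kept the direction without the call and 0 turned. Adjusted p alone is a looser rule on the same fit, so its 85 values could not lose a call. The replicate block, with 2 arrays in each group, could not change the size of a difference. Nor could the local-pooled-error test, the fit without an intensity trend, the fit of only the groups compared or either detection filter. These settings kept every call they held, 85 in each but the 50% filter, which held 74. They repeat the same differences, so their values add little about stability. Losses were most frequent with the mean of all probes of a gene (12 lost, 73 kept) and with median scaling (8 lost, 50 kept). Intensities normalized by neqc gave 6 higher and 10 lower in iPS-cNSCs against brain-NSCs, 6 and 6 in NED-NSCs against brain-NSCs, 5 and 8 in iPS-cNSCs against NED-NSCs, and 3 lower in MEFs (all genes 2091 higher and 2176 lower, from 1203 and 1156). Median scaling gave 5 and 3, 5 and 2 in the first and the third of these, and 0 lower in MEFs. The dimmest signal was 79.8 to 96.2 per array in MEFs and iPS-cNSCs, against 119.2 to 132.2 in brain-NSCs, NED-NSCs and ESCs. At adjusted p alone the counts rose to 13 and 11 in iPS-NSCs, 14 and 16 in iPS-cNSCs, 12 and 10 in NED-NSCs, 16 and 9 in ESCs against brain-NSCs, and 35 and 6 in MEFs. Over all 16593 genes it called 1932 higher and 2045 lower in iPS-NSCs, 2911 and 3196 in iPS-cNSCs, 1668 and 1502 in NED-NSCs, 3376 and 3254 in ESCs, and 3842 and 4357 in MEFs. The same rule gave 10 and 18 in iPS-cNSCs against iPS-NSCs, 9 and 16 against NED-NSCs, and 14 and 4 in #1 against #3 (over all genes 3257 and 3792, 2547 and 2961, and 1191 and 1216). With the mean of all probes of a gene, iPS-cNSCs had 3 lower than brain-NSCs, 0 higher than iPS-NSCs and 2 lower than NED-NSCs. The 50% detection filter left 26 of 56 genes, with 20 higher in MEFs, and moved the median there from -0.03 to -0.14 over all genes and from 0.52 to 2.66 over the members. With line #3 alone in place of the mean of both lines, a choice made after seeing the data, 4 members were lower than in brain-NSCs and 3 were higher in iPS-cNSCs.

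Leaving out 1 array at a time gave 1 to 2 higher and 5 to 6 lower in iPS-cNSCs against brain-NSCs (1 higher without iPS-cNSC replicate 1, where Lamb2 was lost) and 1 to 2 lower in MEFs (2 without MEF replicate 1). It gave 2 to 3 lower in NED-NSCs, 4 to 5 lower in iPS-cNSCs against NED-NSCs, 10 to 11 lower in iPS-cNSCs against iPS-NSCs and 5 to 6 higher in #1 against #3. The replicate block changed no call of a member gene: 7 higher and 2 lower in iPS-NSCs, 2 and 5 in iPS-cNSCs, 3 and 2 in NED-NSCs, 10 and 4 in ESCs and 26 and 1 in MEFs against brain-NSCs, 1 and 10 in iPS-cNSCs against iPS-NSCs, 1 and 4 against NED-NSCs, and 6 and 1 in #1 against #3. The main fit did not pair the arrays by number. Over 21 pairs of groups, the deviations of same-numbered arrays correlated at -0.26 to 0.14, over 0.1 in 4 pairs. The values had been quantile normalized, so whether same-numbered arrays shared a run cannot be told from these correlations. The cause of the shifts in counts between settings was not tested.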
